A study of Mus musculus with 6 samples.

Results

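The genes described here are 53 members of the TGF-beta and BMP signaling pathway around Smad4, chosen by a written list of symbols, out of 24063 gene symbols in the deposited tables. They were compared between penile tumors of 3 SA mice and normal penile epithelium of 3 WT mice, all males of 5 months, by RNA sequencing of 1 library per mouse. SA mice carry PB-Cre+ Smad4L/L ApcL/L, that is, floxed alleles of Smad4 and of Apc together with a Cre recombinase, and their tumors formed with no carcinogen. WT mice are C57BL/6 with neither the Cre nor the floxed alleles. No group with the deletion of Smad4 alone or of Apc alone was analysed here, so the effects of the 2 deletions, of tumor growth and of strain cannot be told apart in this comparison. PB-Cre4 is driven by an androgen-responsive promoter and acts in epithelial cells that express the androgen receptor, so stromal, vascular and immune cells of an SA tumor should keep intact Smad4 and Apc. The genetic background of the SA colony and any kinship with the WT mice are not given in the sources used here.

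Ligands of this family are secreted dimers. TGF-betas, activins and BMPs each bring together type II and type I receptor kinases, and the type I receptor then phosphorylates receptor-regulated Smads, Smad2 and Smad3 for the TGF-beta and activin branch and Smad1, Smad5 and Smad9 for the BMP branch. Smad4 is the common partner that joins both branches in the nucleus, and its loss in stratified epithelia of mice is known to favor squamous carcinoma. In skin and other stratified epithelia TGF-beta restrains keratinocyte growth, while BMPs take part in differentiation and in the patterning of appendages.

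All 53 members were found and all passed the filter on low counts, although Bmp8b, Gdf5, Gdf6, Gdf11 and Gdf15 passed it through the SA samples, with 0 to 2 of 3 WT samples over its level. At an adjusted p-value under 0.01 by edgeR's quasi-likelihood test, 14 members were higher in SA tumors, against a background of 20.1% of all 16336 genes tested, and 10 were lower, against a background of 17.5%. The members' own shares were 26.4% and 18.9%. With a change of at least 4-fold as well, the second threshold of the study, 11 members (20.8%) were higher, where the background was 9.41%, and 2 (3.77%) were lower, where it was 3.59%. Gdf11 and Gdf15 are among these 11. The median log2 fold change of the members was 0.08 and that of all genes was 0.03. In 41 members (77.4%) the SA and WT samples did not overlap, which was the case for 63.4% of all genes, and 17 of these 41 had an adjusted p-value of 0.01 or more. The count of lower members was 6 without WT penis 2, and the count of lower members past 4-fold was 5 without SA tumor 3 and 1 without WT penis 2 or WT penis 3. Scaling by library totals alone, without the composition factors of edgeR, moved the median of all genes to 0.31 and the share of calls that were higher from 53.4% to 74.4%, and it gave 23 higher and 6 lower members.

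**Figure D1:**
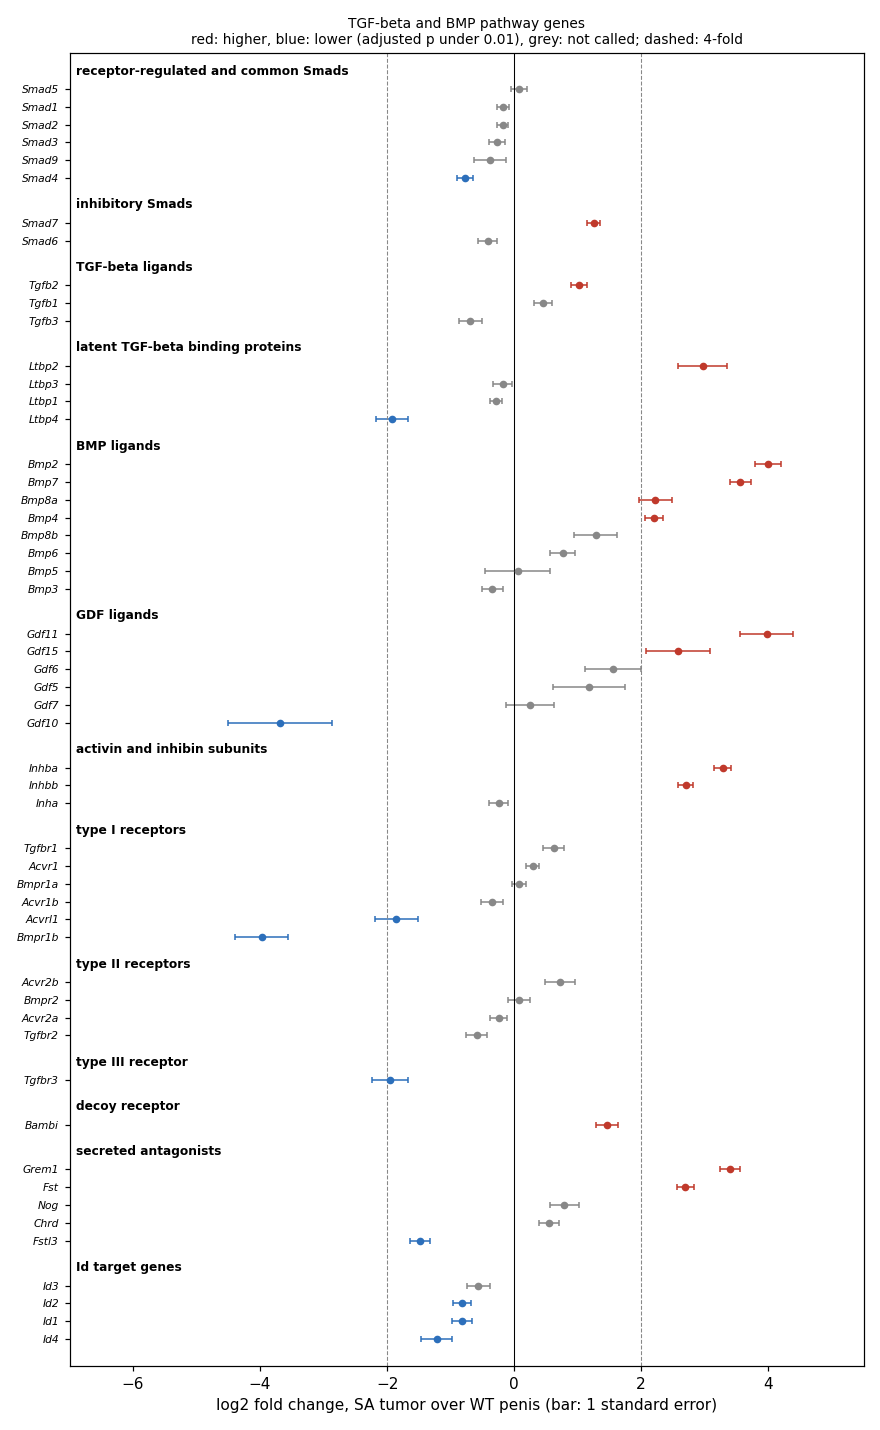
Log2 fold change of each of the 53 members (x axis, SA tumor over WT penis, bars of 1 standard error) grouped by role, in red for 14 members that were higher, in blue for 10 that were lower and in grey for 29 that missed the adjusted p-value. The higher members, 9 ligand genes or subunits among them with Ltbp2, Grem1, Fst, Bambi and Smad7, run from Bmp2 at 3.99 down to Tgfb2 at 1.03, while Bmpr1b at -3.98 and Gdf10 at -3.68 lie farthest to the left.

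Sequencing depth ran from 23828283 to 110509147 counts in gene rows, with SA tumor 3 at 4.42 times the median of the others, and 3 counts stood for 0.0244 to 0.137 CPM (counts per 1e+06, normalized by TMM here and below), a limit that covers counting error only. Both groups are labelled as penile epithelium, and the summed level of 12 squamous epithelium markers was 22392 to 28076 CPM in SA tumors and 63721 to 71302 CPM in WT penises, with 7 markers lower and 1 higher. Krt10 and Krt1 were the largest parts of this squamous sum. Their WT means were 24984 and 20315 CPM, against SA means of 6373 and 6581 CPM. Samples of Cdh1 overlapped (WT mean 420, SA mean 433), and the higher marker was Epcam (WT mean 34.7, SA mean 177). SA samples also lay below all WT samples for Krt5 (WT mean 7614, SA mean 3284) and Trp63 (WT mean 456, SA mean 259). The same held for Krt13 (WT mean 1584, SA mean 455), Lor (WT mean 2748, SA mean 564) and Ivl. Samples of Krt14, Krt4 and Dsg3 overlapped, as those of Cdh1 did. The squamous sum was set mostly by Krt10 and Krt1. It does not by itself measure how much epithelium a sample held, which was not tested. Markers of other cells were also present. All 8 smooth muscle markers were lower and past 4-fold, with a sum of 39.5 to 136 CPM in SA tumors against 1625 to 2168 CPM in WT penises. One of 8 fibroblast markers was lower (Dcn), and their sum was 1495 CPM in SA tumor 1, 4152 in SA tumor 2 and 5284 in SA tumor 3 against 6513 to 6839 CPM in WT penises. Of 8 endothelial markers 3 were lower, with sums of 188 to 322 CPM and 367 to 444 CPM, and of 8 leukocyte markers 1 was higher, with sums of 96.7 to 281 CPM and 69.9 to 109 CPM. Over all genes tested 20.1% were higher and 17.5% lower. The lower shares were 58.3% of squamous epithelium, 12.5% of fibroblast and 37.5% of endothelial markers, and the higher share was 12.5% of leukocyte markers. In bulk tissue, fewer cells of a type and less RNA of a gene per cell cannot be told apart, and the part of these cell types in the results below was not tested.

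Smad4 (NM_008540), the gene targeted in SA mice, was measured at 36.6, 36.1 and 46.1 CPM in the 3 SA tumors and at 61.2, 69.7 and 72.5 CPM in the 3 WT penises. Every SA tumor was below every WT penis, and a signal remained in each tumor. The fold was 0.585, a log2 fold change of -0.77 (standard error, SE, 0.128, adjusted p = 0.00114), and without any single library it lay between -0.90 and -0.71. With library totals alone it was -0.49 (adjusted p = 0.0152), no longer past the threshold. The count covers the whole transcript, so it does not show how much of the remaining signal holds the floxed exons, and the mixture of recombined and intact cells was not measured.

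The receptor-regulated Smads, which carry the signal from the receptors, had no member past the threshold. Their log2 fold changes were -0.17 for Smad1, -0.18 for Smad2, -0.27 for Smad3, 0.08 for Smad5 and -0.38 for Smad9, with adjusted p-values from 0.113 to 0.618, and under library totals alone those of Smad1, Smad2 and Smad3 turned to 0.11, 0.11 and 0.02. Per kilobase of transcript, the scale on which different genes can be set side by side, Smad1 (20.5 ± 1.43 CPM per kb, SD, n = 3) and Smad4 (20.3 ± 1.77) had the highest levels of the 6 genes in WT penises and lay within each other's spread. In SA tumors Smad5 (18.2 ± 1.99) and Smad1 (18.2 ± 0.762) were highest, and Smad4 stood at 11.8 ± 1.68 CPM per kb. Smad9 was the lowest in both groups, at 0.627 ± 0.164 and 0.828 ± 0.114 CPM per kb.

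The pair of inhibitory Smads, which block receptors and compete with Smad4, differed from each other. Smad7, an inhibitor of both branches and itself a target of TGF-beta, was measured at 71.3, 75.7 and 64.1 CPM in SA tumors and at 30.3, 28.6 and 29.8 CPM in WT penises. All tumors lay above all WT samples, and Smad7 rose by a log2 fold change of 1.25 (SE 0.101, adjusted p = 2.55e-05). Smad6, which acts mainly on the BMP branch, was at 12.7 to 17.6 CPM in SA tumors and 20.1 to 22.6 CPM in WT penises, a log2 fold change of -0.41 that missed the threshold (adjusted p = 0.0459). Smad6 was the higher of the pair per kilobase in WT penises (7.13 ± 0.434 against 6.65 ± 0.202 CPM per kb, SD, 3 samples each) and Smad7 in SA tumors (15.8 ± 1.33 against 5.34 ± 0.909).

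**Figure D2:**
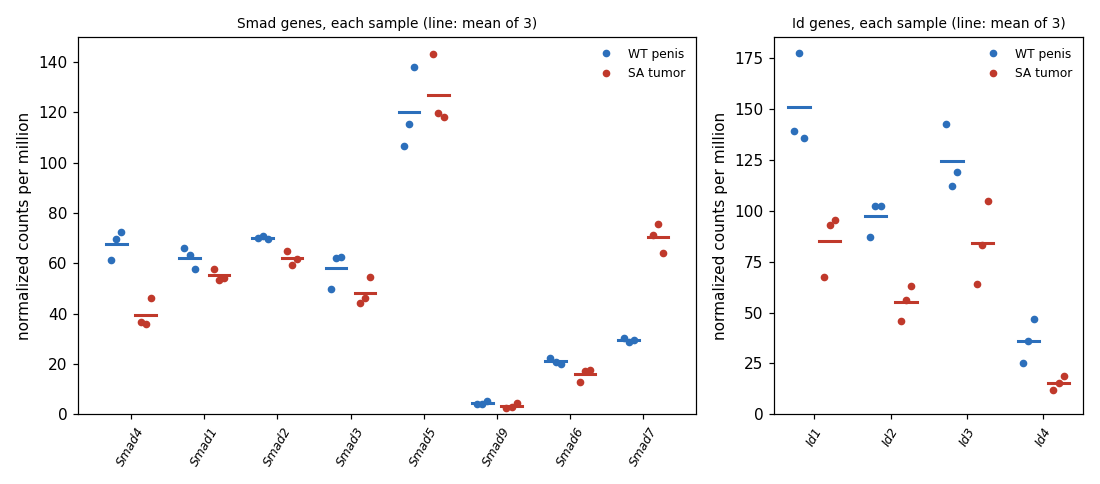
Level of the 8 Smad genes (left) and the 4 Id genes (right) in normalized CPM (y axes), with 1 point per sample and a line at the mean of 3, for WT penis in blue and SA tumor in red. Smad4 lies at 36.1 to 46.1 in SA tumors and at 61.2 to 72.5 in WT penises, Smad7 is the only Smad gene that rose, and all 4 Id genes have their SA samples below their WT samples.

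The Id genes, direct targets of BMP signaling through Smad1, Smad5 and Smad4 that encode inhibitors of basic helix-loop-helix factors, included 3 of 4 that were lower and none past 4-fold, where 17.5% of all genes were lower. Id1 was measured at 67.4, 93.1 and 95.5 CPM in SA tumors and at 139, 177 and 136 CPM in WT penises. Id2 was at 45.7, 56.3 and 62.9 CPM in SA tumors against 87.1, 102 and 102 CPM in WT penises. For each of the 4 genes the 3 SA samples lay below the 3 WT samples, and SA tumor 1 was the lowest. Id1 and Id2 both fell by 0.82 on the log2 scale (adjusted p = 0.00295 and 0.00114), Id4 fell by 1.22 (adjusted p = 0.00326), and Id3 had a log2 fold change of -0.56 that missed the threshold (adjusted p = 0.0275). With library totals alone all 4 stayed negative and none passed the threshold (-0.53 for Id1, -0.54 for Id2, -0.94 for Id4 and -0.28 for Id3). The call of Id1 was also lost without WT penis 2, and that of Id4 without SA tumor 2 or WT penis 2. Id1 kept the highest level per kilobase of the 4 genes in both groups, 161 ± 24.6 CPM per kb in WT penises and 91.4 ± 16.7 in SA tumors, where Id3 (88.2 ± 21.3) was within its spread.

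The 250 bases upstream of the start of transcription are shown for Id2, Id3 and Id4, as targets at the end of the pathway, and for Grem1, the BMP antagonist with the largest rise, to place the letters that Smads read in DNA beside the values. They are RefSeq sequences of the mouse build GRCm38.p6 on the strand of the gene, for Id2 at chr12:25096093-25096342 (minus strand), Id3 at chr4:136143572-136143821 (plus strand), Id4 at chr13:48260866-48261115 (plus strand) and Grem1 at chr2:113758649-113758898 (minus strand). Capitals mark GGCGCC, a palindrome found in BMP-responsive elements bound by Smad1, and GTCTG with its reverse complement CAGAC, which holds the Smad box.
Id2: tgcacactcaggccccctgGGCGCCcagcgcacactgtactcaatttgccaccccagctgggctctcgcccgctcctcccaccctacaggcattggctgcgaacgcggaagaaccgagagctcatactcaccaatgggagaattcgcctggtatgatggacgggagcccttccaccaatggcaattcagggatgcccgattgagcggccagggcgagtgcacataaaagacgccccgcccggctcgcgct
Id3: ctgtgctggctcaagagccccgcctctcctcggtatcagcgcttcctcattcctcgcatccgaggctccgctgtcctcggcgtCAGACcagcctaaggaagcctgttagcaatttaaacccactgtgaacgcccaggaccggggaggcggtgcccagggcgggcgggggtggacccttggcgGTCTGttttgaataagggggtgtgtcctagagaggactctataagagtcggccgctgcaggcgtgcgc
Id4: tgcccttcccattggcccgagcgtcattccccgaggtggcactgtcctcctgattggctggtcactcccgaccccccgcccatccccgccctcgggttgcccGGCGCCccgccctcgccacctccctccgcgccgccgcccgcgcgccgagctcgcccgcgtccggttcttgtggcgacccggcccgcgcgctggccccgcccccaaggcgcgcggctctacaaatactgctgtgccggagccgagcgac
Grem1: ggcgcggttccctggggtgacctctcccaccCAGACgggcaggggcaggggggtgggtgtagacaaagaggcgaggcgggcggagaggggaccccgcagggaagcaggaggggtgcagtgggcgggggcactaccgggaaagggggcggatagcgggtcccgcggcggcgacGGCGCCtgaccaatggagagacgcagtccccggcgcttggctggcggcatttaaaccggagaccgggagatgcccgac
GGCGCC stood once in the windows of Id2, Id4 and Grem1, CAGAC or GTCTG stood 2 times in that of Id3 and once in that of Grem1, and none of these letters were in the window of Bmp4. Upstream windows were at hand for 38 of the 53 members, of which 10 (26.3%) held GGCGCC, against 9.59% of 32851 mouse promoters of the same length. Base composition was not matched between the members and all promoters. The windows of Bmpr1b and Inhba lay 187161 and 2624 bases from the start of the counted transcript as annotated by GENCODE. Those of Bmpr2, Bmp6 and Inha lay 879, 609 and 532 bases from it. Of the windows shown, those of Id3 and Id4 lay 325 and 112 bases from it, and those of Id2 and Grem1 0 and 2 bases. GTCTG or CAGAC was in 18 of the 38 (47.4%) and in 42.2% of all promoters. Ends of the 2 motifs can share 1 letter, which is not the case in the 4 windows shown. The TCF/LEF motif of the Wnt branch was sought in 2 forms on both strands, as CTTTGAA, in 1 of 38 members and 4.46% of all promoters, and as CTTTGAT, in 0 of 38 and 3.21%. A match is a run of letters and not a measured binding site.

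Of the 3 TGF-beta ligands, Tgfb2 was the one member past the threshold (33.3% higher, against a background of 20.1%). Tgfb2 was measured at 58.0, 53.7 and 45.2 CPM in SA tumors and at 23.8, 25.4 and 27.7 CPM in WT penises, with no overlap, and rose by a log2 fold change of 1.03 (SE 0.125, adjusted p = 0.000225). Tgfb1, the main isoform of immune and many other cells, had the highest level per kilobase of the 3 in both groups, 39.5 ± 7.95 CPM per kb in SA tumors and 28.8 ± 1.5 in WT penises (mean ± SD, 3 samples each). Its samples were at 65.9, 83.1 and 99.1 CPM in SA tumors and at 63.1, 56.9 and 61.1 CPM in WT penises, a log2 fold change of 0.46 (adjusted p = 0.0295). Tgfb3 went the other way, at 19.0 to 29.4 CPM against 35.8 to 46.8 CPM, and narrowly missed the threshold (log2 fold change -0.69, adjusted p = 0.0110).

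The latent TGF-beta binding proteins, which tie the inactive ligand to the extracellular matrix, split in direction. Ltbp2, which binds fibrillin but does not itself carry latent TGF-beta, was at 56.4, 152 and 150.2 CPM in SA tumors and at 14.2, 16.1 and 15.5 CPM in WT penises. Ltbp4, which also takes part in elastic fiber assembly, was at 101, 183 and 203 CPM in SA tumors and at 582, 592 and 675 CPM in WT penises. In both genes SA tumor 1 was the lowest of the 3 tumors and no SA sample overlapped a WT sample. Ltbp2 rose by a log2 fold change of 2.97 (SE 0.386, adjusted p = 0.000792), past 4-fold, and Ltbp4 fell by 1.92 on the log2 scale (SE 0.246, adjusted p = 0.000373). Ltbp1 and Ltbp3 missed the threshold, at -0.29 and -0.18. Ltbp4 was the most abundant of the 4 per kilobase in both groups, at 121 ± 9.98 CPM per kb in WT penises and 31.9 ± 10.7 in SA tumors, and the summed level of the 4 genes was 59.3 to 104 CPM per kb in SA tumors and 158 to 179 in WT penises.

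Of 8 BMP ligand genes 4 were higher, all of them past 4-fold (a background of 9.41%), and none was lower. Bmp2 (NM_007553, mm10 chromosome 2, 133552159 to 133562896), a ligand that can drive cartilage and bone formation, was measured at 329, 251 and 199 CPM in SA tumors and at 14.3, 18.1 and 16.4 CPM in WT penises. Bmp7 (NM_007557, chromosome 2, 172868012 to 172940321), known from kidney and skeletal development, was at 425, 352 and 284 CPM against 26.9, 31.4 and 31.6 CPM. Bmp4 (NM_007554, chromosome 14, 46383525 to 46390669), a ligand of many epithelial-mesenchymal contacts, was at 279, 222 and 198 CPM against 47.6, 55.1 and 49.4 CPM. In each of these 3 genes the lowest tumor was above the highest WT penis, SA tumor 1 was the highest and SA tumor 3 the lowest of the tumors. The log2 fold changes were 3.99 for Bmp2 (SE 0.204, adjusted p = 3.18e-06), 3.56 for Bmp7 (0.168, adjusted p = 2.42e-06) and 2.20 for Bmp4 (0.144, adjusted p = 8.99e-06).

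Bmp8a was far less abundant, at 7.99, 6.32 and 4.80 CPM in SA tumors and 1.31, 1.502 and 1.23 CPM in WT penises. All its tumors lay above all WT samples, and it rose by a log2 fold change of 2.22 (SE 0.263, adjusted p = 0.000192). Its related neighbor Bmp8b was at 1.04 to 1.13 CPM against 0.271 to 0.534 CPM and missed the threshold (1.28, adjusted p = 0.0129). Reads of Bmp8a and Bmp8b may have been split between them in counting, which was not tested, so the separate values are uncertain. Bmp6 had a log2 fold change of 0.77 (adjusted p = 0.0115), Bmp3, which opposes other BMPs, -0.35 (adjusted p = 0.113) and Bmp5 0.06 (adjusted p = 0.934), and none of these passed. Bmp5 shares 46.7% of its exon bases with an antisense gene.

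Per kilobase, the 8 BMP genes summed to 361, 289 and 242 CPM per kb in SA tumors 1, 2 and 3 and to 41.6, 48.8 and 45.4 CPM per kb in the WT penises, a ratio of means of 6.57. Bmp4 was the most abundant in both groups, with 117 ± 20.9 CPM per kb in SA tumors and 25.4 ± 1.98 in WT penises (mean ± SD, 3 samples each). Its share of the summed level was 56.2% ± 1.38 in WT penises and 39.4% ± 1.42 in SA tumors. The share of Bmp7 was 18.05% ± 0.793 in WT penises and 32.4% ± 0.696 in SA tumors, and that of Bmp2 was 10.1% ± 0.400 and 24.3% ± 1.24. In all 3 shares the SA samples did not overlap the WT samples. The shares follow from the same levels as the fold changes above and were not tested on their own.

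**Figure D3:**
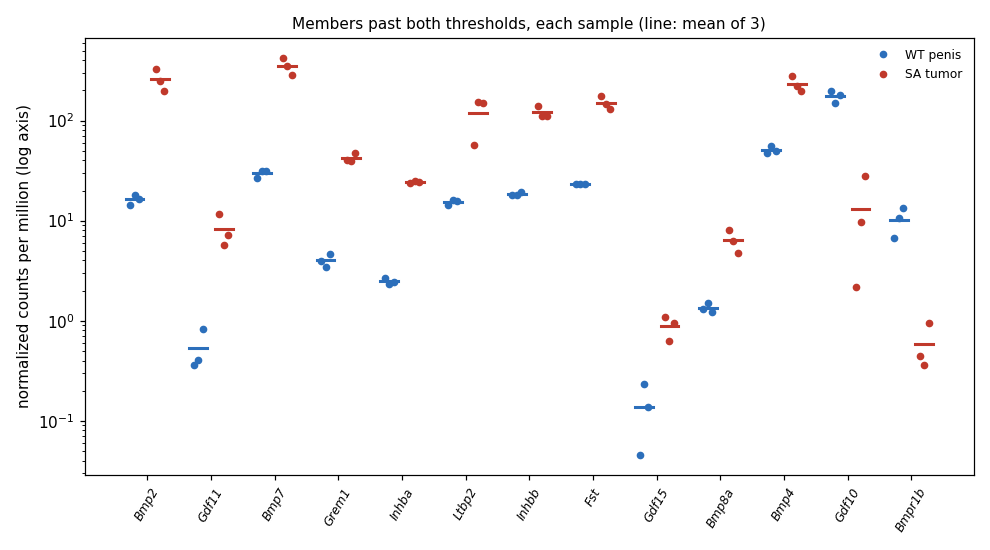
Levels of the 13 members past both thresholds in normalized CPM (y axis, logarithmic), 1 point per sample and a line at the mean of 3, WT penis in blue and SA tumor in red, ordered by fold change. The groups do not overlap in any of them, Inhba has the closest tumors (23.8, 24.0 and 24.7), and Gdf10 has the widest (2.19, 9.60 and 27.8).

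GDF ligands went both ways. Gdf10, also named Bmp3b, was at 2.19, 9.60 and 27.8 CPM in SA tumors and at 197, 149.9 and 179 CPM in WT penises. Gdf11, close kin of myostatin, was at 11.7, 5.73 and 7.24 CPM in SA tumors and at 0.362, 0.401 and 0.820 CPM in WT penises. Gdf15, a stress-induced ligand that acts through a receptor outside the family, was at 1.08, 0.629 and 0.942 CPM against 0.0452, 0.234 and 0.137 CPM, which were 1, 7 and 3 counts in the WT libraries. Groups did not overlap in any of the 3 genes, and Gdf10 differed most among the tumors.

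Gdf10 fell by 3.68 on the log2 scale (SE 0.814), and its adjusted p of 0.00984 was close to the threshold. The call was lost in 4 of 6 analyses that left out a library, with adjusted p-values from 0.0257 to 0.0445 without SA tumor 2, WT penis 1, WT penis 2 or WT penis 3, while the log2 fold change ran from -4.88 to -3.21 over all 6. Gdf11 and Gdf15 entered the test through the SA samples, with 1 and 0 of 3 WT samples over the level of the filter. Gdf11 rose by 3.97 (SE 0.411, adjusted p = 9.16e-05). Gdf15 rose by 2.58 (SE 0.506, adjusted p = 0.00290), a call lost without WT penis 1 or WT penis 3 (adjusted p = 0.0112 and 0.0140). Gdf5, Gdf6 and Gdf7, which work in joints and skeleton, had log2 fold changes of 1.18, 1.55 and 0.25 at levels of at most 2.11 CPM and missed the threshold. Gdf10 was still the most abundant GDF gene per kilobase in SA tumors (5.26 ± 5.24 CPM per kb against 4.55 ± 1.73 for Gdf11, SD, 3 samples each), although these spreads overlap, and in WT penises it held 69.9 ± 9.44 CPM per kb.

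Among the 3 activin and inhibin subunits, both beta subunits rose past 4-fold (66.7%, against a background of 9.41%). Inhba (NM_008380, chromosome 13, 16004256 to 16031609), which forms activin A, was at 23.8, 24.7 and 24.0 CPM in SA tumors and at 2.67, 2.34 and 2.46 CPM in WT penises. Inhbb (NM_008381, chromosome 1, 119415463 to 119422248), which forms activin B, was at 138, 112 and 111 CPM against 18.1, 18.1 and 19.5 CPM. The samples of each group lay close together and far from the other group. The log2 fold changes were 3.28 for Inhba (SE 0.137, adjusted p = 1.96e-06) and 2.70 for Inhbb (SE 0.120, adjusted p = 2.11e-06). Inha, the alpha subunit that turns activins into inhibins, did not pass (-0.24, adjusted p = 0.196), and its log2 fold change was 0.04 with library totals alone. Inha was the most abundant of the 3 per kilobase in WT penises (9.42 ± 1.41 CPM per kb) and Inhbb in SA tumors (28.3 ± 3.61).

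Of the 6 type I receptors, the kinases that phosphorylate Smads, 2 fell (33.3%, against a background of 17.5%) and none rose. Bmpr1b (NM_001277217, chromosome 3, 141837135 to 142169585), a BMP receptor of restricted expression, was at 0.446, 0.364 and 0.942 CPM in SA tumors and at 6.65, 10.6 and 13.3 CPM in WT penises. Acvrl1, the ALK1 receptor of endothelial cells, was at 7.88, 14.4 and 23.0 CPM against 55.0, 55.3 and 55.9 CPM. No SA sample reached a WT sample in either gene. Bmpr1b fell by 3.98 on the log2 scale (SE 0.413, adjusted p = 9.73e-05) and Acvrl1 fell by 1.85 (SE 0.344, adjusted p = 0.00335). The call of Acvrl1 was lost without SA tumor 2 or any 1 WT penis (adjusted p = 0.0146 to 0.0183). The endothelial marker sum was also lowest in SA tumor 1 (188 CPM) and highest among tumors in SA tumor 3 (322 CPM), and the part of endothelial content in Acvrl1 was not tested.

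The other type I receptors did not pass. Acvr1b, a receptor of activins, was the most abundant per kilobase in both groups, with 86.2, 58.6 and 76.4 CPM in SA tumors and 75.0, 99.8 and 106 CPM in WT penises (-0.34, adjusted p = 0.130). Bmpr1a, the broadly expressed BMP receptor, had a log2 fold change of 0.08 (adjusted p = 0.576) and was at 99.98 to 121 CPM and 91.7 to 109 CPM, so its samples overlapped. Tgfbr1 was at 40.2 to 64.1 CPM against 31.8 to 35.8 CPM without overlap and missed the threshold (0.62, adjusted p = 0.0134), as did Acvr1 (0.29, adjusted p = 0.0367). Bmpr1b was at 0.113 ± 0.0604 CPM per kb in SA tumors and Bmpr1a at 19.7 ± 2.05 (SD, 3 samples each), against 1.96 ± 0.642 and 18.6 ± 1.65 in WT penises.

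No type II receptor passed the threshold. Tgfbr2, the receptor that binds TGF-beta first, was the most abundant per kilobase in both groups and lay at 76.5, 93.1 and 121 CPM in SA tumors and at 139, 141 and 158 CPM in WT penises. These samples did not overlap, with a log2 fold change of -0.59 (adjusted p = 0.0150). Acvr2b was at 0.72 (adjusted p = 0.0282), Acvr2a at -0.25 (adjusted p = 0.168) and Bmpr2 at 0.08 (adjusted p = 0.720), and that of Acvr2a was 0.04 with library totals alone.

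Of the co-receptors, Tgfbr3 (betaglycan), which presents TGF-beta2 to Tgfbr2, was at 13.5, 27.2 and 30.5 CPM in SA tumors and at 84.5, 90.9 and 103 CPM in WT penises. It fell by 1.96 on the log2 scale (SE 0.282, adjusted p = 0.000885), just short of 4-fold, with no overlap between groups. Bambi, a decoy that lacks the kinase of type I receptors and is itself induced by BMP and Wnt signals, was at 108, 95.0 and 74.0 CPM against 39.7, 29.7 and 30.7 CPM. All tumors were above all WT samples, and Bambi rose by 1.47 (SE 0.169, adjusted p = 0.000166).

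Of the 5 secreted antagonists, which trap ligands outside the cell, 2 (40%) were higher and past 4-fold, against a background of 9.41%. Grem1 (NM_011824, chromosome 2, 113748675 to 113758648), which binds BMP2, BMP4 and BMP7, was at 40.2, 39.0 and 46.9 CPM in SA tumors and at 3.98, 3.44 and 4.65 CPM in WT penises. Fst (NM_008046, chromosome 13, 114452262 to 114458989), follistatin, which binds activins tightly and some BMPs weakly, was at 175, 146 and 130.2 CPM against 23.3, 23.0 and 23.3 CPM. Neither gene had overlapping groups. Grem1 rose by 3.39 (SE 0.156, adjusted p = 2.24e-06) and Fst by 2.70 (SE 0.128, adjusted p = 2.44e-06). Nog and Chrd, noggin and chordin, had log2 fold changes of 0.79 and 0.54 with no overlap between groups and missed the threshold (adjusted p = 0.0173 and 0.0190).

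Fstl3, a follistatin-like binder of activin and myostatin, went the other way, at 10.4, 14.6 and 15.6 CPM in SA tumors and 38.8, 36.1 and 39.0 CPM in WT penises. Every tumor lay below every WT penis, and Fstl3 fell by 1.48 (SE 0.159, adjusted p = 0.000112). It shares 47.3% of its exon bases with Prss57 on the opposite strand, and whether the counting used the strand is not given in the sources used here. Fstl3 was the most abundant antagonist per kilobase in WT penises (19.4 ± 0.830 CPM per kb, SD, n = 3) and Fst in SA tumors (64.3 ± 9.72). The 5 antagonists summed to 103 to 112 CPM per kb in SA tumors and to 35.3 to 39.3 in WT penises, a ratio of means of 2.83, beside the ratio of 6.57 for the BMP ligands and of 3.38 for the activin and inhibin subunits, which summed to 49.95 to 55.7 and to 14.4 to 16.8 CPM per kb. The ratio was 1.25 for the TGF-beta ligands and 0.166 for the GDF ligands, which summed to 8.59 to 17.3 CPM per kb and to 61.0 to 79.2 CPM per kb, most of it from Gdf10 in WT penises.

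**Figure D4:**
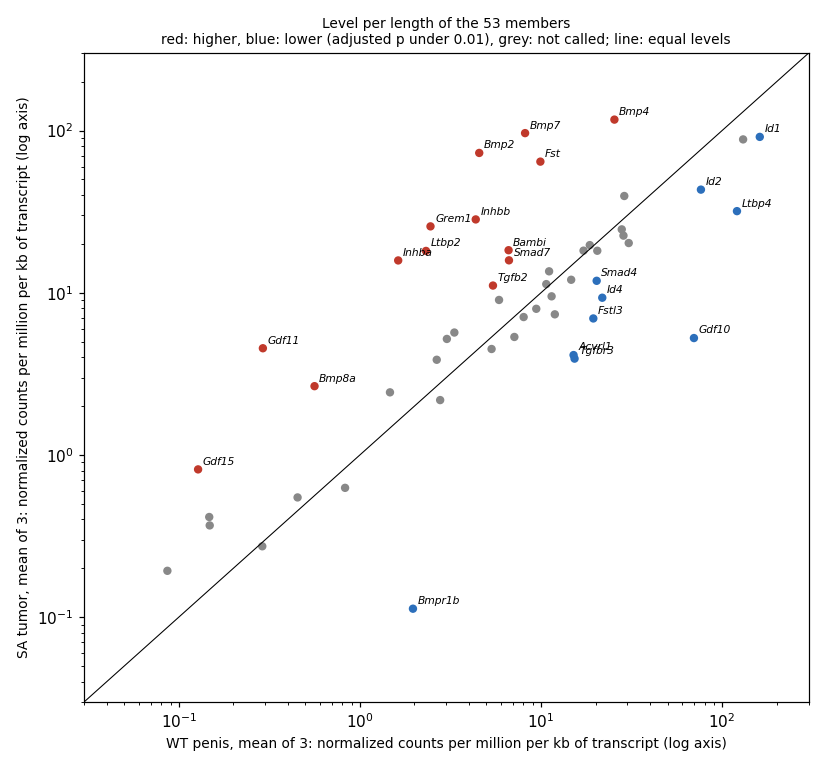
Mean level of each member in SA tumors (y axis) against WT penises (x axis), in normalized CPM per kb of transcript on logarithmic axes, n = 3 each, in red for higher, blue for lower and grey for not called members, with a line at equal levels. Bmp4, Bmp7, Bmp2 and Fst lie at 25.4, 8.17, 4.56 and 9.92 on the x axis and at 117, 96.4, 72.8 and 64.3 on the y axis, while Ltbp4 and Gdf10 drop from 121 and 69.9 to 31.9 and 5.26.

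The members that fell had extremes in the same tumors. For all 10 of them the highest tumor was SA tumor 3, against 43.2% of the 2865 genes that were lower among all genes, and for 8 of the 10 the lowest was SA tumor 1, against 47.5%. Of the 14 members that rose, 10 (71.4%) were highest in SA tumor 1, against 44.8% of the 3283 higher genes. The summed levels of smooth muscle markers (39.5, 107 and 136 CPM), of fibroblast markers and of endothelial markers were likewise lowest in SA tumor 1 and highest among tumors in SA tumor 3, as were those of leukocyte markers (96.7, 186 and 281 CPM), which were not lower than in WT penises. Among the lower members the same extremes were seen in Gdf10, Acvrl1, Tgfbr3, Ltbp4, Fstl3, Id1, Id2 and Id4. With 3 tumors this is a description, and the part of stromal content in it was not tested.

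**Figure D5:**
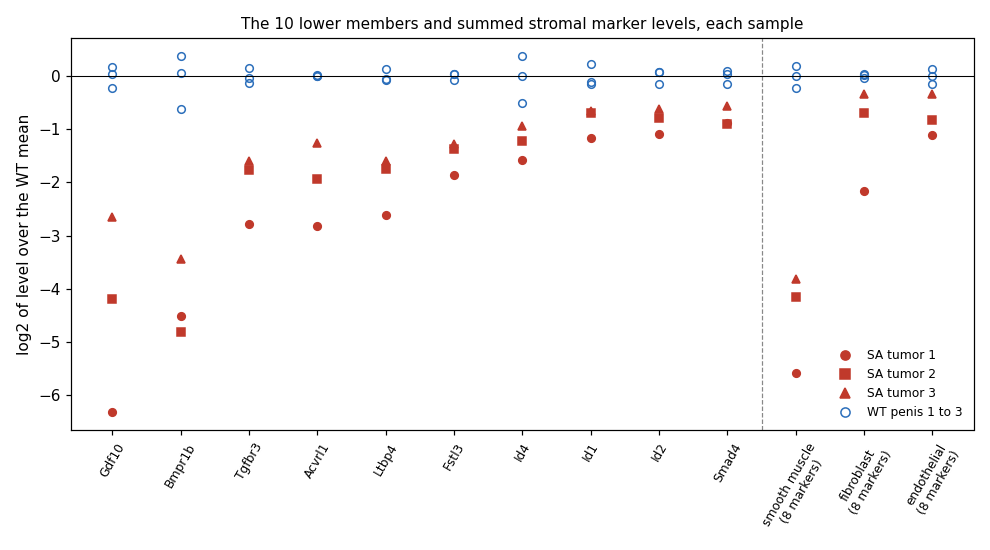
Log2 of the level over the WT mean (y axis) for the 10 members that fell and, right of the dashed line, for the summed levels of 8 smooth muscle, 8 fibroblast and 8 endothelial markers, in each SA tumor (red, a shape per tumor) and WT penis (open blue circles). Gdf10 spans -6.32 to -2.66 over the tumors and Smad4 -0.91 to -0.56, and SA tumor 3 is the highest tumor in every column.

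Genes of the same pathway outside the 53 members were read from 7 further lists, whose counts stand against the 20.1% of all genes that were higher and the 17.5% that were lower. Of 13 other ligands of the family only 3 had counts enough to be tested and none passed, with a median log2 fold change of -0.28. Of 22 other extracellular antagonists and modulators 18 were tested, with 5 higher (27.8%), 2 lower (11.1%) and a median of 0.13. Fstl4 and Fstl5, follistatin-like genes, were past 4-fold by the estimate of the fit. Both entered the test through the SA samples alone, with 0 WT samples over the level of the filter. Fstl4 was at 0.196 CPM in WT penises and 7.07 CPM in SA tumors (means of 3, log2 fold change 5.19). Fstl5 had 11, 18 and 46 counts in SA tumors and none in WT penises. Taken against the largest floor of a WT library, Fstl5 was at least 3.36-fold higher, a bound that does not reach 4-fold. The others were Sostdc1 (1.69), Kcp (1.59) and Bmp1 (0.98), which cleaves chordin, on the higher side and Dcn (-1.80), also a fibroblast marker, and Twsg1 (-0.54) on the lower side, given as log2 fold changes.

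Of 10 genes that activate or hold latent TGF-beta, 2 (20%) were higher and 1 (10%) lower, with a median of 0.62. Fbn2, a fibrillin, was past 4-fold (2.51, adjusted p = 6.93e-05), Furin, which cleaves the ligand precursors, rose by 1.14, and Itgb6, a subunit of the integrin that frees latent TGF-beta in epithelia, fell by 1.70. Of 10 other receptors and co-receptors, 5 were tested (median 0.01) and the BMP co-receptor genes Rgmb and Neo1 fell, by 1.06 and 1.21. Of 18 intracellular regulators of Smads 4 were higher and 4 lower (22.2% each), none past 4-fold, with a median of 0.06. Pmepa1, Tgif1, Skil and Tgif2 had log2 fold changes of 1.57, 1.36, 1.13 and 1.03, and Nedd4l, Stub1, Ski and Zfyve9 of -1.16, -0.80, -0.58 and -0.51.

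Of 19 TGF-beta response genes tested 6 were higher (31.6%) and 4 lower (21.1%), with a median of 0.22. Those past 4-fold were Timp1 (2.85), Snai1 (2.27) and Fn1 (2.24) on the higher side and Acta2 (-3.92) and Tagln (-3.63) on the lower side, and the last pair also stands in the smooth muscle list, all 8 genes of which were lower. Skil and Pmepa1 count in this list as well as among the regulators. Of 11 BMP response genes tested 5 were higher (45.5%) and 2 lower (18.2%), with a median of 0.62. Runx2 (4.77) and Sp7 (3.39), transcription factors of bone formation, were past 4-fold on the higher side (Sp7 with 2 of 3 WT samples over the level of the filter) and Dlx5 (-2.85) on the lower side. Smad6 and Smad7 stand in this list as well as among the members, while the 4 Id genes, with a median of -0.82, stand only among the members. Response genes moved in both directions on either branch. The medians of both lists were above the 0.03 of all genes, but the BMP list leaves out the 4 Id genes, whose median was below it.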

How the data were processed

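RNA of 3 SA tumors and 3 WT penises was sequenced as stranded 76 nt paired ends on an Illumina HiSeq. The authors mapped reads with TopHat to mm10, checked them with FastQC and deposited raw counts per RefSeq transcript, named as HTSeq counts in the methods. FPKM and TPM values, which the authors deposited in the same files, were used only to recover transcript lengths. Tool versions and the strand setting are not given in the sources used here. The transcript row with the highest mean count stood for its symbol, and 10 members have more than 1 row, with nearly the same counts.

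Counts were analysed with edgeR 4.0.16 in R 4.3.3, with filterByExpr (a minimum of 10 counts, 0.380 CPM, in 3 samples), TMM and the robust quasi-likelihood F-test, with p-values adjusted by Benjamini-Hochberg over 16336 genes. Thresholds were those of the study, an adjusted p of 0.01 and a log2 fold change of 2. The standard error was the log2 fold change divided by the square root of F. DESeq2 1.42.0, the tool of the study, limma-voom (limma 3.58.1), 4 scalings, 2 filters, summed transcript rows, a replicate block and leave-one-out were alternatives. Scripts were tested on simulated data. Where nothing states separate litters, p-values measure only the spread between these samples. Marker lists covered squamous epithelium, fibroblasts, smooth muscle, endothelium, leukocytes, cartilage and bone, adipocytes and skeletal muscle, and Ccn1, Ccn2 and Hjv were matched by their older symbols. One further marker list is not reported here.

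The members, lists and naming rule were chosen with earlier results of these data known. Every member was given under its role. Values in each sample were given for Smad4, for members past both thresholds and for the most abundant member of most roles. Smad1, Smad5, Smad6 and Inha, each highest of its role in WT penises or in SA tumors, were given by means or ranges only. From the other lists, at most 6 genes past both thresholds were named, and some further called genes were named after their values were seen. Coordinates are those of RefSeq for GRCm38.p6, matched by identifier for all 53 members.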

Additional observations from a re-analysis of the deposited data

How the results depend on the processing

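The 11 members higher past both thresholds stayed at 10 or 11 under each of the 10 other settings and without any 1 library. The 14 higher members at the adjusted p-value became 23 with library totals alone and 18 with DESeq2, and ran from 13 to 18 with 1 library left out. The 10 lower members became 6 with library totals alone and 13 with DESeq2, and ran from 6 to 13 with 1 library left out. The 2 lower members past 4-fold became 1 with RLE factors and 1 with no filter on low counts, where Gdf10 missed the threshold (adjusted p = 0.0111 and 0.0323), and ran from 1 to 5 with 1 library left out. The log2 fold change of Smad4 was -0.49 with library totals alone, and ran from -0.90 to -0.71 with 1 library left out.

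The samples were treated as unpaired. Same-numbered samples had residuals that correlated at -0.13, -0.10 and 0.02 across genes, and differently numbered ones at -0.15 to 0.21. Residuals centered within groups of 3 constrain each other, so these values do not decide whether the samples were paired. With the replicate block 14 members were higher, 10 lower, and 10 and 2 past both thresholds, and Gdf10 and Gdf15 missed the adjusted p-value (0.0281 and 0.0105).

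Directions turned only in members that had missed the threshold. With library totals alone the log2 fold changes were 0.11 for Smad1, 0.11 for Smad2, 0.018 for Smad3, 0.10 for Ltbp3, 0.043 for Inha and 0.037 for Acvr2a. That of Bmp5 was -0.033 with DESeq2, -0.16 with the replicate block, and ran from -0.76 to 0.33 with 1 library left out. With 1 library left out they also ran from -0.017 to 0.17 for Smad5, from -0.012 to 0.13 for Bmpr1a and from -0.056 to 0.23 for Bmpr2. The cause was not tested. Of all values recomputed for single members, 775 kept direction and side of the threshold, 31 gained a call, 21 lost one and 16 turned. The filter at a mean of 50 counts gave no value for Bmp5, Bmp8b, Gdf5, Gdf7 and Gdf15. Depth limits genes near 0.137 CPM, such as Gdf15 in WT penises, and 3 samples a group limit the rest.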

Other observations

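Markers of skeletal tissue moved unevenly beside the rise of Bmp2, Bmp4 and Bmp7. Of 10 cartilage and bone markers 7 were tested. Ibsp, Col2a1, Sp7 and Bglap2 were higher and past 4-fold (57.1%, against a background of 9.41%). Comp and Sox9 were lower (28.6%, against a background of 17.5%). Sp7 also counts among the BMP response genes above. The 4 higher genes entered the test through the SA samples, with 0 to 2 of 3 WT samples over the level of the filter. Ibsp, bone sialoprotein, was at 2.66 to 17.5 CPM in SA tumors and had 1 count in each WT library, under the limit of 3 counts. Bglap2, an osteocalcin gene with no counts in WT penises, was at least 6.13-fold higher against the largest floor of a WT library. The summed level of the 10 markers was 52.3 to 67.4 CPM in SA tumors and 86.6 to 88.1 CPM in WT penises, set mostly by Sox9 (36.5 and 71.3 CPM).

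Of 6 adipocyte markers 2 were tested, Fabp4, which macrophages and some epithelia also express, at 5.11 and Plin4 at -3.87, while Adipoq, Plin1, Cidec and Lep had too few counts. Of 6 skeletal muscle markers 5 were tested and Ckm fell by 3.71, with 2 of 3 SA samples over the level of the filter.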
